A study of Mus musculus with 4 samples.

Results

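Centrosome and centriole genes were followed across 4 RNA-seq libraries of primary cultured mouse astrocytes. They were taken as the protein-coding genes of GENCODE vM21 whose symbol is Cep followed by a number, together with Plk4, Sass6, Stil, Cenpj, Wdr62, Aspm, Cdk5rap2, Mcph1, Pcnt, Pcm1 and Ccp110. This gave 47 genes of the 55487 gene identifiers in each table. The rule used names and annotation, not expression values, but the set was chosen with earlier results of these data known. All 47 passed the filter on low values, a mean of at least 1 CPM over the 4 libraries, CPM being a count scaled to the library's size. None lies on the X or Y chromosome.

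The cultures were OASIS deficient or OASIS wild type, and each genotype was sequenced after doxorubicin and without it, with 1 library for each of the 4 combinations. OASIS is the protein of Creb3l1, a membrane-bound transcription factor of the endoplasmic reticulum that is cleaved under stress. Doxorubicin, a topoisomerase poison that breaks DNA, was applied for 1 h at 1 µg/ml to cells 5 days past confluence, and cells were kept for another 24 h in fresh medium. The untreated libraries are labelled as having no treatment, and the study compared the genotypes for their transcriptional response to DNA damage when OASIS is missing. The sources used here do not give how the deficient allele was made or how many animals went into a culture.

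A centrosome is a pair of centrioles inside a coat of pericentriolar material that nucleates microtubules. New centrioles form in each cell cycle under the kinase Plk4, which acts on Stil and Sass6 to build a cartwheel, and the same centrioles serve as basal bodies of primary cilia in cells that have left the cycle. Several of the genes are therefore transcribed mainly in dividing cells, while appendage and cilium genes are also used by resting cells such as confluent astrocytes. Loss-of-function variants of Aspm, Wdr62, Cdk5rap2, Cenpj, Mcph1 and Stil cause primary microcephaly in humans.

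Total counts ran from 17481188 to 22559613 a library, and the 10 most abundant genes held 6.76 to 7.21% of them. Creb3l1 had 235 and 260 counts in the deficient libraries, with and without doxorubicin, against 636 and 966 in the wild-type libraries. Which exons those counts come from is not visible in a whole-gene total. Treated and untreated libraries also differed in sex-linked transcripts. Xist, an X-inactivation RNA made in female cells, reached 2742 and 2547 counts in the deficient and wild-type doxorubicin libraries, against 0 and 1 in the untreated ones. Ddx3y, Eif2s3y, Kdm5d and Uty, 4 genes of the Y chromosome, summed to 0 counts in both doxorubicin libraries, against 2396 and 3350 in the deficient and wild-type untreated libraries. A difference between treated and untreated libraries therefore cannot be told apart from a difference between cultures of opposite sex, whereas within each treatment both genotypes had the same sex-linked pattern.

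The genes were moderately to weakly expressed. Per transcript length, the median of their mean levels was 6.71 TPM (transcripts scaled by length and library size). The mean was under 5 TPM in 14 of them and over 20 TPM in 5. Cdk5rap2 was the highest, at 157 and 117 TPM in the deficient and wild-type doxorubicin libraries and 147 and 145 TPM in the untreated ones. Cep19, Cep44, Cep170b and Pcm1 followed, with means of 43.8, 28.6, 26.9 and 24.3 TPM. Pcm1, the scaffold of the centriolar satellites, was nearly flat at 24.0 to 24.4 TPM in the 4 libraries. At the other end stood Cep152, Cep72, Stil and Cep295nl, with means of 1.30 to 1.69 TPM. The exons of 16 of the 47 overlap another annotated gene, and the library kit keeps no strand, so reads of such pairs cannot be told apart. The overlap reaches 10% of the exons or more in 3 genes.

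**Figure D1:**
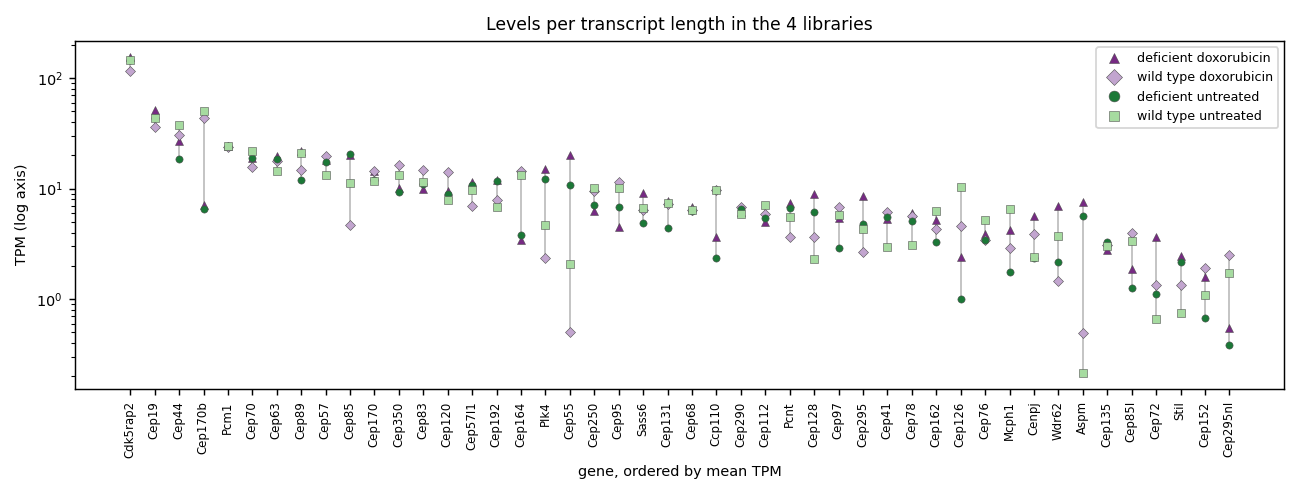
Deposited TPM (log axis) of 46 of the 47 genes in the 4 libraries, ordered by the mean, with a grey line from the lowest to the highest library. Pcm1 spans 24.0 to 24.4 TPM, whereas Aspm spans 0.216 to 7.54 TPM and Cep55 spans 0.505 to 20.1 TPM.

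Aspm, Cep55, Plk4, Cep85, Cep128 and Cdk5rap2 were higher in the deficient libraries in edgeR's quasi-likelihood test of genotype, and 5 genes were lower, among them Cep170b, Cep126, Ccp110 and Cep164. A gene was called at a Benjamini-Hochberg adjusted p of at most 0.05 over 15596 genes, with treatment as the second term. The test has 1 residual degree of freedom and takes a gene's spread mostly from other genes, so it treats a gene whose genotype ratio differs between treatments as noisy. The 6 and 5 genes make up 12.8% and 10.6% of the 47, beside 12.6% of all genes tested for higher calls and 10.6% for lower ones. The share called is thus at the background in both directions, and the results lie in which of the genes moved and by how much. Of the 47, 16 (34.0%) had an unadjusted p under 0.05, beside 34.5% of all genes.

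By size alone, a gene counted as higher or lower when log2 of (CPM + 1) differed by at least 1 between 2 libraries, with no test. After doxorubicin 8 of the 47 were higher and 5 lower in the deficient library, where 10.7% of all genes were higher and 9.55% lower. Among the 5, Cep295nl passed the filter only through the wild-type libraries, and 4 were lower at a minimum mean of 5 CPM. Without treatment 6 were higher and 3 lower, beside 9.79% and 10.2% of all genes. Aspm, Cep55, Plk4 and Cep128 were higher and Cep170b, Ccp110 and Cep126 lower in both treatments. Those are 4 and 3 genes, beside 5.76% and 5.17% of all genes. The median log2 ratio of the 47 genes was 0.24 after doxorubicin and 0.06 without it, and that of all genes 0.02 and -0.03. The median size of the ratio, taken without its sign, was 0.66 and 0.54 in the 47 genes and 0.45 and 0.47 in all genes. The 2 genotype ratios come from different libraries. Across the 47 genes their Pearson correlation was 0.70 and Spearman's was 0.55, beside 0.69 and 0.61 across all genes. In 37 of the 47 (78.7%) they lay within 1 log2 unit of each other, beside 86.3% of all genes.

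**Figure D2:**
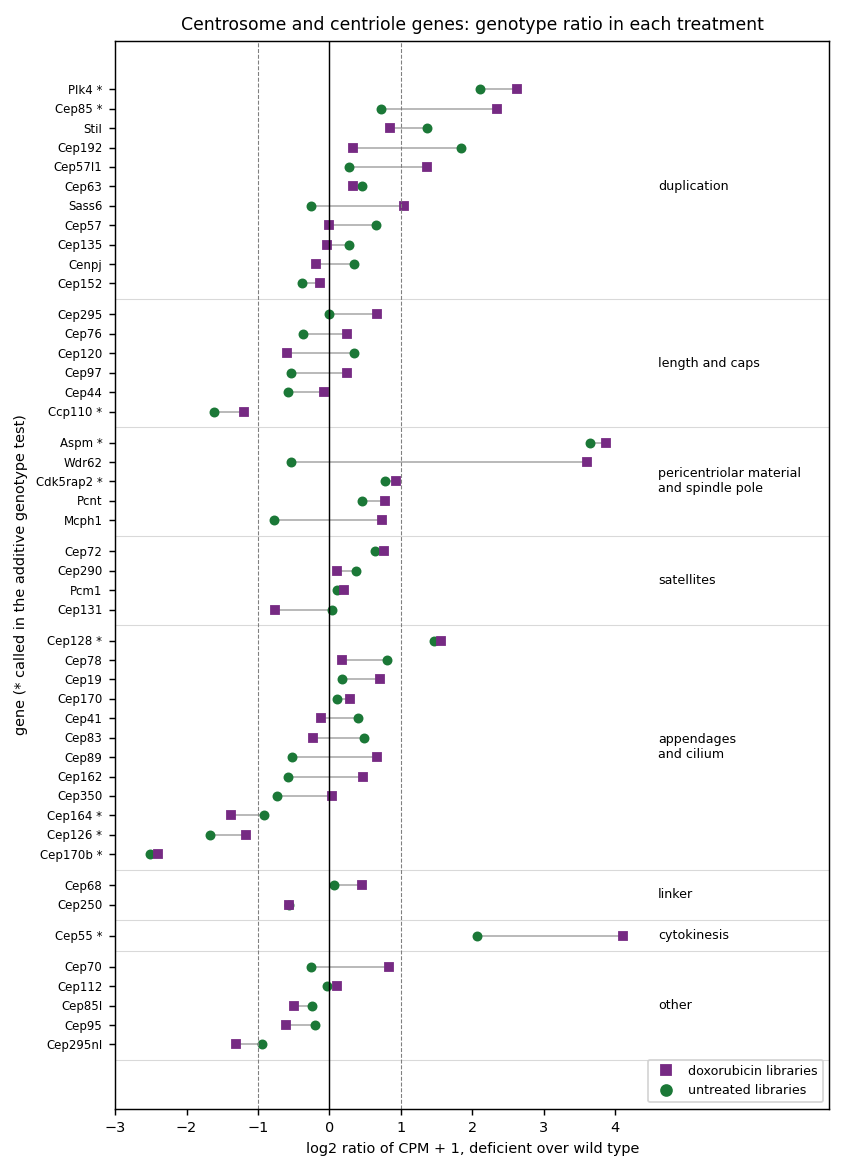
Log2 ratio of CPM + 1, deficient over wild type, for 46 of the 47 genes by role, with squares for the doxorubicin pair of libraries and circles for the untreated pair. Dashed lines mark a ratio of 1 either way and an asterisk marks the called genes. Aspm (3.87 and 3.65) and Cep170b (-2.40 and -2.51) hold the same place in both pairs, whereas Wdr62 stands at 3.60 after doxorubicin and -0.54 without it.

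Genes with the widest mean genotype ratios in either direction, together with a gene of ratio near 0, were set beside their promoters. Genes of the cell cycle often carry E2F sites or the cell cycle homology region (CHR) near the start of transcription. The windows below are RefSeq's on GRCm38.p6, from 250 bases before to 50 after the start, printed 5′ to 3′ on the gene's own strand, with the first listed window where a gene has several. They are chr1:139454523-139454822 (plus strand) for Aspm, chr19:38054734-38055033 (plus) for Cep55, chr3:40799701-40800000 (plus) for Plk4 and chr4:134187036-134187335 (minus) for Cep85. Capitals mark a CHR (TTTGAA or TTCGAA) or an E2F-like word (TTCCCGC or TTCGCGC or TTGCCGC or TTGGCGC) on either strand. Aspm and Cep55 have a CHR close to the start, Plk4 and Cep85 an E2F-like word.
Aspm: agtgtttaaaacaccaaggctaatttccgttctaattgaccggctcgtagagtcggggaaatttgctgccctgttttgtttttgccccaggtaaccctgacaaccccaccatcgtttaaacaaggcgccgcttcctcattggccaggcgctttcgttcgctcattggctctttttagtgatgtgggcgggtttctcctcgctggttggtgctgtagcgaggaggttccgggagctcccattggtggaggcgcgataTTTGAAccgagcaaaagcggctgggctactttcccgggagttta
Cep55: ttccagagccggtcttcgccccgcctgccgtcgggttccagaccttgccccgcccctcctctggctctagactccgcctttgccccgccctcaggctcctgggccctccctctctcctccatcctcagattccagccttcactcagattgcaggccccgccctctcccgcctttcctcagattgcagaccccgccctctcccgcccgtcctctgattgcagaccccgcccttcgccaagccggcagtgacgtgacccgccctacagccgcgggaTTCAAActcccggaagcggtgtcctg
Plk4: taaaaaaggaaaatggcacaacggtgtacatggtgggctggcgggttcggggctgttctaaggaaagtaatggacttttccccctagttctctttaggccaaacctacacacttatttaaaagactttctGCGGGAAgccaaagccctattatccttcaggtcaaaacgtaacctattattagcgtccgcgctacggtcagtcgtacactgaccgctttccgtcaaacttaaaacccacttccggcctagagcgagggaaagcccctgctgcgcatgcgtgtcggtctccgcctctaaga
Cep85: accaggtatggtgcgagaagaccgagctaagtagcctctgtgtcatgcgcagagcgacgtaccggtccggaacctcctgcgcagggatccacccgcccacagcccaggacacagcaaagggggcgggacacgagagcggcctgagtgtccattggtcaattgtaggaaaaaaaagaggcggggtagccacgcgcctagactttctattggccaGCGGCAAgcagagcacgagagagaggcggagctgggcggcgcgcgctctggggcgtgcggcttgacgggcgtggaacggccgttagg

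Cep170b (chr12:112721924-112722223, plus strand) is shown as the gene with the widest lower ratio, and it has none of these words. Wdr62 (chr7:30280372-30280671, minus strand), whose ratio turned between treatments, is also shown for the size of its mean ratio. Cep112 (chr11:108425016-108425315, plus strand) is shown as the gene with a ratio near 0, and it carries both kinds of word.
Cep170b: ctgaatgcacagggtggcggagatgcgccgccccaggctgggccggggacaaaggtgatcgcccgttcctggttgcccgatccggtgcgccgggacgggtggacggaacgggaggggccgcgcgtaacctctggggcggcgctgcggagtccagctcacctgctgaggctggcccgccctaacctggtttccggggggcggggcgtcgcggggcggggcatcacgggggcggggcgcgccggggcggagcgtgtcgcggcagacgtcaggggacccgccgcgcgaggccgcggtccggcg
Wdr62: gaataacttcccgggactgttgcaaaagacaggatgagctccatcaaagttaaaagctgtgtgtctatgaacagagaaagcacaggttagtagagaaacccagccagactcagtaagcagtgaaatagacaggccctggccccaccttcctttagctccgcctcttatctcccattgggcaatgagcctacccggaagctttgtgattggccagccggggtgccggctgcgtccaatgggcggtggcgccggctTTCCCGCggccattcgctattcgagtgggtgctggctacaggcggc
Cep112: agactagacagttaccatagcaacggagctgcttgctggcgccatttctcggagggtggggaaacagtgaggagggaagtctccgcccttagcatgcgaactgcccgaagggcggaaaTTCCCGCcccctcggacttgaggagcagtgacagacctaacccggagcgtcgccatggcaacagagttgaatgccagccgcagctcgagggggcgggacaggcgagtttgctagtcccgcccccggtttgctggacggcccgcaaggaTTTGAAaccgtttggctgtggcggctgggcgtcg

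A promoter window was found for 39 of the 47 genes. An E2F-like word stood in 16 of them (41.0%), beside 14.1% of 16513 protein-coding genes and 10.9% of all 27025 genes in the promoter table. A CHR stood in 13 (33.3%), beside 19.5% and 21.7%. Either word was in 25 (64.1%), beside 31.2% and 30.7%. A CCAAT box, searched as CCAAT on both strands, stood in 19 (48.7%), beside 42.1% and 41.1%. The word TTGGCGC can overlap a CCAAT box on the other strand. All 6 genes called higher held a CHR or an E2F-like word, as did Cep164 of the 4 genes called lower that have a window, and 18 of the 29 genes not called. A gene with several windows was counted if any of them matched. A match describes these letters and not a bound site.

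Aspm, a spindle pole protein that focuses microtubule ends in mitosis, had the highest fitted genotype ratio of the 47. It had 50.2 and 31.2 CPM in the deficient libraries with and without doxorubicin, against 2.49 and 1.56 CPM in the wild-type libraries. Both deficient libraries were above both wild-type ones. The ratio of counts was 20.1-fold (95% interval for counting error 15.4 to 26.8) after doxorubicin and 20-fold (14.0 to 29.8) without it. The fitted log2 ratio was 4.32 ± 0.336 (SE derived from the test statistic of the fit), with edgeR's adjusted p = 1.51e-07. In bulk RNA of this kind, fewer cells of a type and less RNA per cell cannot be told apart.

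Of the other genes of the pericentriolar material and spindle pole, Cdk5rap2, which activates the gamma-tubulin ring, was called higher. It had 157 and 155 CPM in the deficient libraries with and without doxorubicin, against 81.7 and 89.7 CPM in wild type, a fitted log2 ratio of 0.86 ± 0.140 (SE; edgeR's adjusted p = 0.000306). On the authors' TPM scale its log2 ratio was 0.42 after doxorubicin and 0.03 without it, so the untreated difference was not seen there. Its exons share 365 bases with the pseudogene Ywhaq-ps3 on the same strand, and its counts were fractional in all 4 libraries. Pcnt, the large scaffold of the pericentriolar coat, had 40.4 and 33.2 CPM in deficient and 23.2 and 23.8 CPM in wild type. Its fitted log2 ratio of 0.64 ± 0.245 (SE) did not pass, with edgeR's adjusted p = 0.0732. Mcph1, a microcephaly gene that also restrains chromosome condensation, had 14.0 and 6.74 CPM in deficient and 8.04 and 12.3 CPM in wild type. Its groups overlapped and its fitted log2 ratio was -0.02.

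Wdr62, a spindle pole scaffold, had 19.6 CPM in the deficient and 0.699 CPM in the wild-type doxorubicin library, and 7.38 and 11.1 CPM in the untreated ones. These rest on 387 against 16 counts and on 127 against 222 counts. Wild type after doxorubicin was thus the low library, and the genotype order without treatment was the opposite one. The deficient level was 28.0-fold higher (17 to 49.5) after doxorubicin and 1.51-fold lower (1.21 to 1.89) without it. With such unequal ratios the genotype test gave 1.90 ± 1.01 (SE) and edgeR's adjusted p = 0.203. The read-to-TPM ratio, relative to the median protein-coding gene, was 0.28 in the low library, and 1.50, 1.75 and 1.82 in the others. It restates the gap between counts and TPM, and the cause of that gap was not tested. By TPM the log2 ratio after doxorubicin was 1.69. A stretch of 264 exonic bases is shared with Thap8 on the opposite strand.

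Genes of centriole duplication were led by Plk4, the kinase that starts it. Plk4 had 30.3 and 20.9 CPM in the deficient libraries with and without doxorubicin, against 4.06 and 4.07 CPM in wild type. Both deficient libraries lay above both wild-type ones. The count ratio was 7.47-fold (5.99 to 9.40) after doxorubicin and 5.14-fold (4.03 to 6.63) without it, and the fitted log2 ratio was 2.63 ± 0.371 (SE; edgeR's adjusted p = 8.73e-05). By the authors' TPM the levels were 15.2 and 12.2 TPM in deficient and 2.34 and 4.73 TPM in wild type, and the log2 ratio of TPM + 1 was 2.28 after doxorubicin and 1.20 without it, beside 2.11 without it from CPM. Cep85, which binds Stil and helps to activate Plk4, had 25.7 and 23.3 CPM in deficient against 4.24 and 13.8 CPM in wild type. Its ratio was 6.06-fold (4.87 to 7.61) after doxorubicin and 1.69-fold (1.45 to 1.98) without it, and the fitted log2 ratio was 1.66 ± 0.421 (SE; edgeR's adjusted p = 0.00931). In a fit without the treatment term the ratio was 1.45 and the call was lost (edgeR's adjusted p = 0.0879). The low library was again wild type after doxorubicin, and Cep85 counts were fractional in all 4 libraries.

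The other 9 duplication genes were not called. Stil, the partner that Plk4 phosphorylates, had 10.5 and 5.81 CPM in the deficient libraries with and without doxorubicin, against 5.37 and 1.66 CPM in wild type. Its fitted log2 ratio of 1.37 ± 0.561 (SE) had edgeR's adjusted p = 0.0945. Cep192, which recruits Plk4 to the mother centriole, had 21.9 and 18.4 CPM in deficient against 17.3 and 4.42 CPM in wild type, with a fitted ratio of 1.17 ± 0.416 (SE; edgeR's adjusted p = 0.0542). Here the untreated wild-type library stood alone as low, at 88 counts, and its read-to-TPM ratio of 0.39 was also the lowest of the 4 libraries. Sass6, the building block of the cartwheel, had 15.6 and 8.89 CPM in deficient and 7.03 and 10.8 CPM in wild type, so its genotype order differed between treatments. Of its exonic bases 24.5% overlap the antisense gene Gm42893.

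Cenpj, which sets centriole length, had 8.90 and 6.51 CPM in deficient and 10.3 and 4.87 CPM in wild type, and its groups overlapped. Cep57l1, a paralogue of Cep57, had 12.2 and 12.3 CPM in deficient and 4.15 and 9.94 CPM in wild type, with edgeR's adjusted p = 0.169. Cep152, the other recruiter of Plk4, had 7.89 and 3.43 CPM in deficient and 8.73 and 4.82 CPM in wild type. Both doxorubicin libraries were above both untreated ones, and the genotypes differed less. Cep63, Cep57 and Cep135 had fitted log2 ratios of 0.41, 0.34 and 0.13. Summed over the 11 duplication genes, the deficient libraries held 200 and 170 CPM with and without doxorubicin, against 122 and 104 CPM in wild type.

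Cep55, which brings the abscission machinery to the midbody at the end of division, is the one cytokinesis gene among the 47. It had 32.9 and 17.6 CPM in the deficient libraries with and without doxorubicin, against 0.961 and 3.46 CPM in wild type. Both deficient libraries were above both wild-type ones, and the widest gap was after doxorubicin, at 651 against 22 counts. The ratio was 34.3-fold (22.4 to 55.0) after doxorubicin and 5.08-fold (3.90 to 6.70) without it. The fitted log2 ratio was 3.63 ± 0.565 (SE), with edgeR's adjusted p = 0.000215.

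The lower genes were found among appendages and caps. Cep170b, a microtubule-binding paralogue of the subdistal appendage protein Cep170, had 38.3 and 36.5 CPM in the deficient libraries with and without doxorubicin, against 206 and 213 CPM in wild type. It was 5.39-fold lower (4.99 to 5.83) after doxorubicin and 5.84-fold lower (5.37 to 6.36) without it. The fitted log2 ratio of -2.49 ± 0.146 (SE) had the smallest adjusted p of the 47 genes in edgeR, 6.63e-09. Cep170 itself had 49.8 and 42.6 CPM in deficient and 40.6 and 39.4 CPM in wild type, with a fitted ratio of 0.21 that did not pass.

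Cep164, the distal appendage protein that brings Ttbk2 to the mother centriole before a cilium forms, had 15.5 and 17.5 CPM in deficient and 41.9 and 33.8 CPM in wild type. It was 2.70-fold lower (2.37 to 3.08) after doxorubicin and 1.93-fold lower (1.68 to 2.22) without it, with a fitted log2 ratio of -1.19 ± 0.263 (SE; edgeR's adjusted p = 0.00372). Cep126, which organizes microtubules at the base of the cilium, had 4.75 and 2.90 CPM in deficient against 12 and 11.4 CPM in wild type, a fitted ratio of -1.64 ± 0.488 (SE; edgeR's adjusted p = 0.0229). By TPM the log2 ratio of Cep126 was -0.72 after doxorubicin, short of the size rule, and -2.48 without it.

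Cep128 of the subdistal appendages went the other way. It had 30.2 and 24.6 CPM in the deficient libraries with and without doxorubicin, against 9.56 and 8.23 CPM in wild type, and a fitted log2 ratio of 1.62 ± 0.316 (SE; edgeR's adjusted p = 0.00148). The ratio was 3.16-fold (2.70 to 3.70) after doxorubicin and 2.98-fold (2.49 to 3.60) without it. Distal appendage genes apart from Cep164 were not called. Cep83, at the base of these appendages, had 20.4 and 24.4 CPM in deficient and 24.2 and 17.2 CPM in wild type. Cep89, another of them, had 40.6 and 23.1 CPM in deficient and 25.2 and 33.7 CPM in wild type. Cep162, a protein of the transition zone, had 30.2 and 18.5 CPM in deficient and 21.5 and 28.2 CPM in wild type, and its fitted ratio of -0.06 was the nearest to 0 of the appendage and cilium genes. Of these 13 genes 1 was called higher and 4 lower, and the remaining 8 had fitted ratios between -0.36 for Cep350 and 0.55 for Cep78.

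Ccp110, the cap on the distal end of the centriole that holds back cilium growth, had 14.2 and 10.4 CPM in deficient against 33.8 and 33.9 CPM in wild type. It was 2.39-fold lower (2.08 to 2.75) after doxorubicin and 3.26-fold lower (2.76 to 3.87) without it. The fitted log2 ratio was -1.48 ± 0.285 (SE), with edgeR's adjusted p = 0.00132. Its partner Cep97 had 16.3 and 13.9 CPM in deficient and 13.6 and 20.7 CPM in wild type, a fitted ratio of -0.16 that did not pass. Cep44, which acts when a new centriole matures, had 19.2 and 16.2 CPM in deficient and 20.3 and 24.6 CPM in wild type. Cep295, another maturation factor, had 21.1 and 18.8 CPM in deficient and 12.9 and 18.8 CPM in wild type. Cep76, which limits reduplication, had 10.1 and 9.24 CPM in deficient and 8.30 and 12.3 CPM in wild type. Cep44, Cep76, Cep120 and Cep295 had fitted ratios of -0.34, -0.06, -0.13 and 0.35, and none of these 4 passed. Antisense exons of Gm16568 cover 10.9% of the exons of Cep295.

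Among the satellite genes, Pcm1 had 73.8 and 66.3 CPM in deficient and 64.0 and 61.9 CPM in wild type. Cep131, a satellite protein, had 10.4 and 9.88 CPM in deficient and 18.2 and 9.59 CPM in wild type. Cep290, of satellites and the ciliary transition zone, had 32.4 and 32.3 CPM in deficient and 30 and 24.7 CPM in wild type. Cep131, Cep72 and Cep290 had fitted ratios of -0.39, 0.91 and 0.25, and none of the satellite genes was called. Cep72, at 149 and 57 counts in deficient against 92 and 35 counts in wild type, kept a count ratio of 1.87 (1.44 to 2.46) after doxorubicin and 1.88 (1.22 to 2.96) without it. The linker genes Cep250 and Cep68, which tie a cell's centrosomes together, stood at -0.59 and 0.27. Cep68 had 21.5 and 20.2 CPM in deficient and 15.4 and 19.3 CPM in wild type. Cep250 had 22.7 and 26.8 CPM in deficient and 34.0 and 40.4 CPM in wild type. It was 1.50-fold lower (1.34 to 1.69) after doxorubicin and 1.51-fold lower (1.34 to 1.69) without it, with edgeR's adjusted p = 0.0898. A protein-coding gene on the opposite strand covers 11.1% of its exons. Of the other 5 genes, Cep295nl had 16 and 8 counts in deficient against 80 and 36 counts in wild type. Its fitted ratio of -2.03 ± 1.09 (SE) did not pass, with edgeR's adjusted p = 0.206, and it passed the filter only through the wild-type libraries. Cep112 had 8.19 and 11.1 CPM in deficient and 7.56 and 11.3 CPM in wild type, the smallest mean ratio of this group. Cep95 had 8.75 and 11 CPM in deficient and 13.8 and 12.9 CPM in wild type, and Cep85l had 6.37 and 5.17 CPM in deficient and 9.43 and 6.33 CPM in wild type. Both deficient libraries lay below both wild-type ones for Cep95, and the groups of Cep85l overlapped. Their adjusted p in edgeR was 0.465 and 0.599. Cep70 had 17.5 and 14.5 CPM in deficient and 9.43 and 17.6 CPM in wild type, and its groups overlapped.

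**Figure D3:**
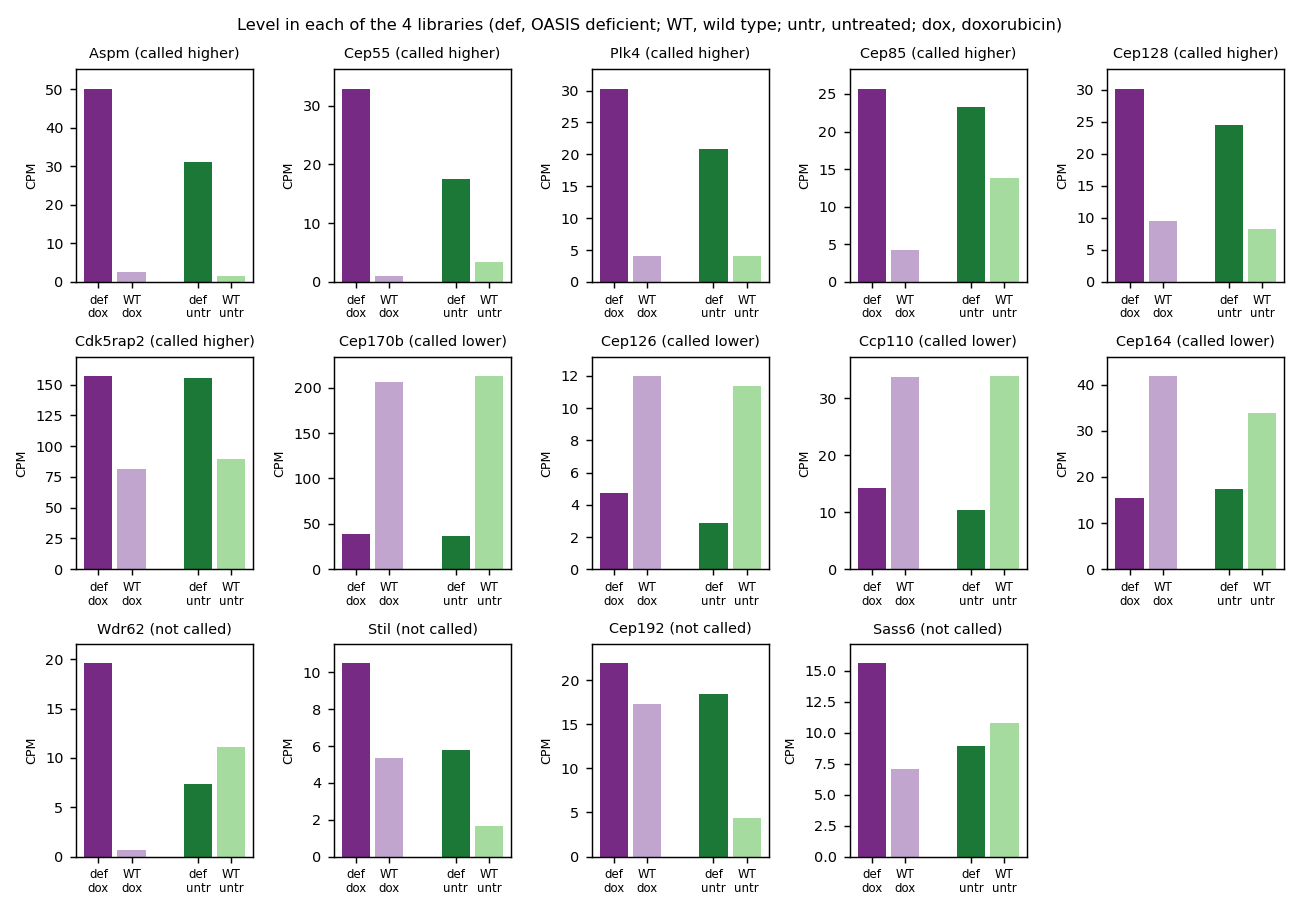
Scaled CPM in each library for 10 of the 11 called genes and for Wdr62, Stil, Cep192 and Sass6, with 1 bar per library and no error bars because each group has 1 library. The deficient bars (def) exceed both wild-type bars (WT) for the 6 genes called higher and lie below them for the 4 called lower that are drawn, whereas for Wdr62 the wild-type doxorubicin library is lowest at 0.699 CPM and the untreated pair is in the opposite order.

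Few of the 47 genes differed between the doxorubicin and the untreated library of a genotype, and edgeR's test of treatment called 0 of them. Over all 15596 genes it made 3 higher calls (0.0192%) and 22 lower ones (0.141%), and 0 and 13 without genes on X and Y. In 3 of the 47 (6.38%, beside 5.54% of all genes) its unadjusted p was under 0.05, Aspm, Stil and Cep192, with fitted log2 ratios of 0.68, 1.26 and 1.08. DESeq2 and limma-voom also called 0, with 1 and 2 genes at an unadjusted p under 0.05. In the deficient pair of libraries 2 genes were higher by size and 0 lower, beside 1.58% and 1.93% of all genes. In the wild-type pair 2 were higher and 4 lower, beside 4.08% and 5.45%. The median log2 ratio of the 47, doxorubicin over untreated, was 0.22 in deficient and 0.04 in wild type, and that of all genes was 0.03 in deficient and 0.00 in wild type.

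In wild type the 4 lower genes were Wdr62, Cep85, Cep55 and Cep57l1. By counts Wdr62 was 16.0-fold lower (9.61 to 28.4) in the doxorubicin library and Cep55 3.61-fold lower (2.20 to 6.12). Cep85 was 3.25-fold lower (2.57 to 4.14) and Cep57l1 2.40-fold lower (1.87 to 3.09). By TPM the log2 ratio was -0.94 for Wdr62 and -0.43 for Cep57l1, both short of the size rule. For Cep85 and Cep55 it was -1.11 and -1.04. Stil, at 123 counts with doxorubicin against 33 without, was 3.24-fold higher (2.19 to 4.92), and Cep192 was 3.90-fold higher (3.09 to 4.98). By TPM no gene was higher by size in the wild-type pair, where the log2 ratio of TPM + 1 was 0.43 for Stil and 0.19 for Cep192. The wild-type libraries that set these ratios also set the genotype ratios above, so the comparisons share them.

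In deficient cultures the 2 higher genes were Wdr62 and Cep152. Wdr62 was 2.65-fold higher (2.16 to 3.27) and Cep152 2.30-fold higher (1.70 to 3.16) in the doxorubicin library. Among the genes named above, Aspm, Cep55, Plk4 and Stil had count ratios with doxorubicin of 1.61, 1.87, 1.45 and 1.80 in deficient cultures, against 1.60, 0.277, 0.999 and 3.24 in wild type. Of the 47 genes, 36 (76.6%) had a log2 ratio above 0 in deficient cultures and 24 (51.1%) in wild type, beside 53.8% and 49.4% of all genes.

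The difference of these responses, deficient minus wild type, was at least 1 log2 unit either way in 10 of the 47 genes (21.3%), beside 13.7% of all genes. In 9 the deficient response was the higher one, with Wdr62 at 4.13, Cep55 at 2.05, Cep85 at 1.63 and Mcph1 at 1.51. Sass6, Cep89, Cep70, Cep57l1 and Cep162 followed at 1.31, 1.20, 1.08, 1.07 and 1.05. Cep192 was the one gene on the other side, at -1.51, followed by Cep120 at -0.93 and Cep131 at -0.80. By TPM the log2 ratios in deficient and wild type were 0.04 and 0.19 for Cep192 and 0.06 and -0.43 for Cep57l1. Those of Wdr62 stayed opposite by TPM, at 1.31 and -0.94. The median over the 47 was 0.15, and over all genes 0.02. With 1 library for each combination there is no test of the difference.

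**Figure D4:**
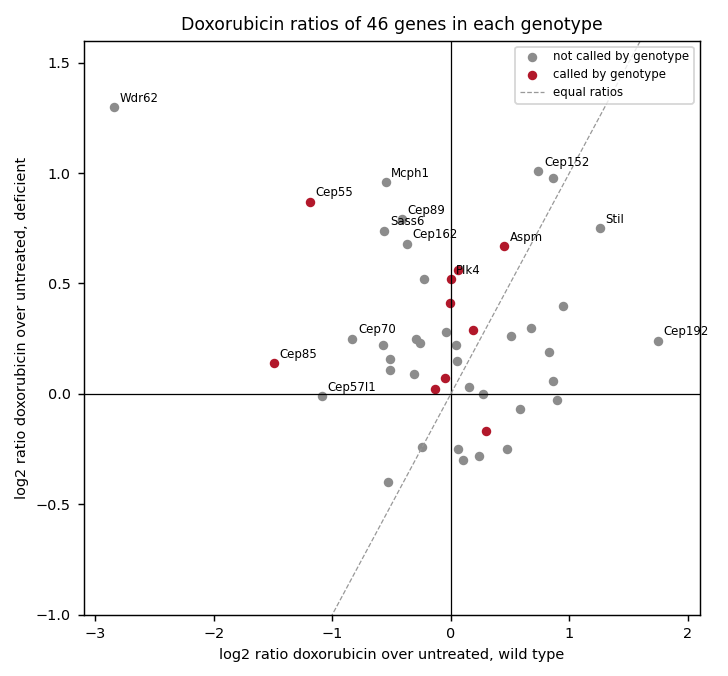
Log2 ratio of CPM + 1, doxorubicin over untreated, in deficient cultures (vertical axis) against wild-type cultures (horizontal axis) for 46 of the 47 genes, with the genes called by genotype in red and a dashed line for equal ratios. Wdr62 lies at 1.30 in deficient and -2.84 in wild type, and Cep192 at 0.24 in deficient and 1.75 in wild type.

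The partners of these genes were counted in lists of the same pathways. Of all genes tested 12.6% were called higher and 10.6% lower, the background for each list below. The kinases and partners of the centrosome cycle differed most, with 13 of 15 called higher and 1 lower in deficient cultures. Aurka, which matures the centrosome before mitosis, had 1529 and 792 counts in deficient with and without doxorubicin, against 86 and 8 counts in wild type, a fitted log2 ratio of 5.18 ± 0.421 (SE; edgeR's adjusted p = 2.48e-07). Plk1, which drives maturation and disengagement, had 1684 and 946 counts against 26 and 78 counts. Nek2, which dissolves the linker, had 1047 and 500 counts in deficient against 6 and 86 counts in wild type, and Fbxo5, an inhibitor of the anaphase-promoting complex, had 619 and 441 against 35 and 8. Fbxo5, which is among the 13 higher calls, passed the filter only through the deficient libraries. Nek2 and Plk1 were lower, and Aurka and Espl1 higher, in the wild-type doxorubicin library than in the untreated one by at least 1 log2 unit. The lower gene was Fbxw7, which targets cyclin E for degradation, at a fitted ratio of -1.20 ± 0.209 (SE; edgeR's adjusted p = 0.000582). The median ratio of this list was 2.84 after doxorubicin and 2.50 without it.

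Centriole assembly partners outside the 47 had 6 of 17 called higher and 0 lower, namely Poc1a, Cntrob, Tubd1, Cntln, Tedc1 and Cetn3. Poc1a, a centriole wall protein, had 399 and 169 counts in deficient with and without doxorubicin, against 116 and 37 counts in wild type, a fitted ratio of 2.19 ± 0.453 (SE; edgeR's adjusted p = 0.00233). Cntrob, a daughter centriole protein, had 234 and 300 counts against 79 and 133 counts in wild type. Tubd1, delta-tubulin, had 388 and 209 counts against 106 and 135, and Cntln, a linker protein, had 406 and 229 against 181 and 92. In all 4 both deficient libraries were above both wild-type ones. Of 18 gamma-tubulin ring and augmin genes 3 were called higher and 1 lower, beside 12.6% and 10.6% of all genes. Tubg1, the main gamma-tubulin, had 2099 and 1376 counts against 617 and 718 counts in wild type, with a fitted ratio of 1.56 ± 0.211 (SE; edgeR's adjusted p = 5.75e-05). Haus1 and Haus7, augmin subunits that branch new microtubules from old ones, were the other two higher genes and Haus2 the lower one, at 1.17, 0.81 and -0.56. Haus1 had 665 and 587 counts in deficient against 408 and 253 counts in wild type. Haus5, at 0.83 ± 0.304 (SE), was not called, with edgeR's adjusted p = 0.0602. Of 14 appendage, satellite and basal body genes 1 was called higher and 0 lower, beside the same shares. Calls so few are not read as a result about the gamma-tubulin and augmin list or the appendage list. The higher gene was Ssx2ip, with 1154 and 906 counts in deficient against 822 and 676 counts in wild type and a fitted ratio of 0.67. Ofd1, a satellite and distal centriole protein, had 165 and 122 counts against 314 and 310 counts, and its fitted ratio of -0.92 ± 0.395 (SE) did not pass (edgeR's adjusted p = 0.108). Ttbk2, the kinase that Cep164 recruits, had 375 and 216 counts in deficient and 162 and 261 counts in wild type. Bbs4, a subunit of the ciliary BBSome, had 443 and 453 counts against 777 and 803 counts, with edgeR's adjusted p = 0.0814.

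The list for surveillance of centriole number had 0 of 9 called higher and 3 lower, beside 12.6% and 10.6% of all genes. Pidd1, which joins Cradd and Casp2 in the PIDDosome when extra centrosomes are present, had 226 and 104 counts in deficient with and without doxorubicin, against 1326 and 1604 counts in wild type. Its fitted log2 ratio was -3.01 ± 0.306 (SE), with edgeR's adjusted p = 3.08e-06. Mdm2, which degrades p53, had 1572 and 1454 counts against 9150 and 7627 counts in wild type. Mdm2 and Cdkn1a were the other two, at -2.26 and -2.86, and all 3 are known targets of p53. Trp53, Casp2, Cradd, Usp28, Trp53bp1 and Ankrd26 were not called, with fitted ratios of -0.29, -0.03, -0.35, 0.73, -0.16 and 0.98.

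Of the 8 genes of centriole amplification in multiciliated cells 5 passed the filter, Deup1 and Myb only through the deficient libraries, so no share of called genes is read from this list. Deup1, a Cep63 paralogue that forms deuterosomes, had 138 and 56 counts in deficient with and without doxorubicin, against 0 counts in both wild-type libraries. Taken against a floor of 3 counts a library, it was at least 53.3-fold higher after doxorubicin and at least 21.6-fold higher without it. Gmnc, a regulator of multiciliated fate, had 202 and 173 counts against 36 and 19 counts, with a fitted ratio of 3.03 ± 0.604 (SE; edgeR's adjusted p = 0.00171). Myb, a transcription factor of cell division and multiciliated fate, had 60 and 74 counts against 11 and 0 counts. Mcidas, another regulator of that fate, was under the filter, at 26 and 3 counts in deficient and 0 in both wild-type libraries. Foxj1, the main regulator of motile cilia, had 1382 and 1160 counts in deficient and 2335 and 1530 counts in wild type and was not called. Of the 8 ependymal markers, Foxj1 among them, 0 were called in either direction, 2 at an unadjusted p under 0.05, and their summed level was 169 and 171 CPM in deficient against 199 and 168 CPM in wild type.

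**Figure D5:**
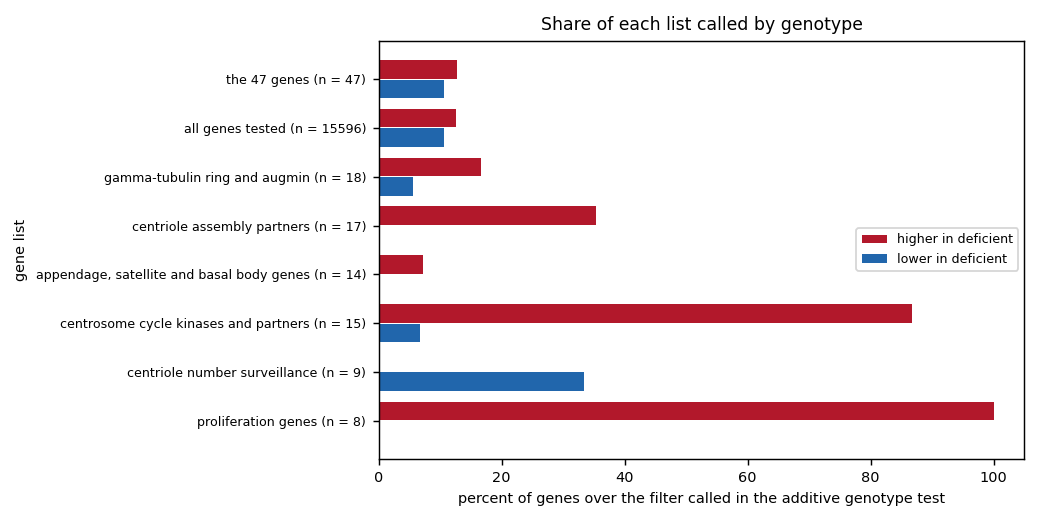
Percent of the genes over the filter that edgeR's genotype test called higher (red) or lower (blue) in deficient cultures, for the 47 genes, all genes, 5 pathway lists and the proliferation genes. The 47 genes (12.8% and 10.6%) lie at the level of all genes (12.6% and 10.6%), and 13 of 15 kinases and partners and 8 of 8 proliferation genes were called higher. Of the 13, Fbxo5 passed the filter only through the deficient libraries.

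Other measures moved with genotype in the same libraries. The calls below stand beside 12.6% of all genes called higher and 10.6% called lower. All 8 proliferation genes were called higher, and their summed level was 998 and 759 CPM in deficient with and without doxorubicin, against 137 and 118 CPM in wild type. Mki67 had 2869 and 1738 counts against 276 and 78 counts, and Top2a 3774 and 2365 against 270 and 197. Cdkn1a, the p21 inhibitor of the cell cycle, had 3926 and 3204 counts in deficient against 34221 and 25804 counts in wild type. Of 12 oligodendrocyte lineage markers 10 were called higher and 0 lower, and their sum was 1090 CPM in both deficient libraries against 348 and 475 CPM in wild type. Of these markers 3 were at 0 in the treated wild-type library (Mog, Mobp and Sox10) and 1 in the untreated one (Mog). Of 10 neuron and neuroblast markers 8 passed the filter and 5 were called higher, with sums of 463 and 430 CPM against 216 and 245 CPM, and Dcx and Snap25 were at 0 in wild type. Of these markers Sox10, Mog, Mobp, Cldn11, Dcx, Snap25 and Gad1 passed the filter only through the deficient libraries. All but Cldn11 were among the higher calls, so no share of called genes is read from the oligodendrocyte or neuron lists. Of 10 astrocyte markers, which define the labelled cell type, 8 were called higher, with sums of 10000 and 11300 CPM against 3950 and 4040 CPM. Of 12 microglia markers 1 was called higher and 2 lower, with sums of 696 and 1050 CPM against 799 and 1120 CPM. Fibroblast and meninges markers had 0 of 7 called and 1 at an unadjusted p under 0.05. Their sums were 291 and 328 CPM against 211 and 378 CPM. Endothelium and pericyte markers had 1 of 4 called lower, with sums of 7.63 and 9.64 CPM against 20.4 and 19.9 CPM. The lower one was Tek, which passed the filter only through the wild-type libraries. The part of these other cells and of the share of dividing cells in the differences of the 47 genes was not tested.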

How the data were processed

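Total RNA of 4 primary astrocyte cultures was sequenced after library preparation with the SMART-Seq v4 kit, which keeps no strand, per the labels' protocols. Per the submitters' processing notes the authors used DRAGEN and GRCm38, and the version, settings and annotation release are not stated there. The deposited tables give estimated counts and TPM for each of 55487 genes, and the authors did not pool libraries. Gene identifiers were matched without version to GENCODE vM21 (55227 matched, 260 did not).

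Estimated counts were rounded to whole numbers and scaled by TMM in edgeR 4.0.16 (R 4.3.3). Genes with a mean of at least 1 CPM were kept (15596). Each group has 1 library, so single comparisons are log2 ratios of CPM + 1 with exact binomial 95% intervals of the count ratio, which cover counting error only. The estimated counts carry no molecular identifiers. The floor used for a library at 0 is 3 counts, equal to 0.131 to 0.174 CPM. Genotype and treatment were tested in one additive quasi-likelihood model over the 4 libraries (common dispersion 0.0863, 1 residual degree of freedom). Each SE is the size of the fitted log2 ratio divided by the square root of the test's F statistic. It therefore rests mostly on spread taken from other genes and is not a spread between replicates. Nothing states that cultures came from separate animals. The p-values likewise rest mostly on spread taken from other genes and do not measure a spread between replicates. The 1 residual degree of freedom holds any difference of genotype ratio between treatments together with noise.

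Values per library are given for the 11 genes named by symbol in the definition of the set, called genes, the widest and the smallest genotype ratios of each role, genes past the size rule in a doxorubicin comparison, the widest differences of responses, and up to 4 genes a pathway list. Cep83, Cep89, Cep120, Cep170, Mcidas and the marker genes named were chosen after their values were seen. One gene of the set is counted in the totals and is not reported here by name. The members, lists and motifs were chosen with earlier results of these data known. Alternatives were DESeq2 1.42.0, limma-voom (limma 3.58.1), other scalings, pseudocounts and filters, TPM, and leaving out each library.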

Additional observations from a re-analysis of the deposited data

Results flagged for a closer look

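A set of 7 genes had doxorubicin ratios of opposite direction in the genotypes, with both counting intervals clear of 1 and a difference of at least 1 log2 unit. The difference itself was not tested, since each combination has 1 library, and the intervals cover counting error only. The share of all genes that meet the same rule was not counted, so the number of genes is not read as a result. Treated and untreated libraries also differed in sex-linked transcripts, which cannot be told apart from doxorubicin here. In log2 units, deficient minus wild type, it was 4.13 for Wdr62, 2.05 for Cep55, 1.51 for Mcph1, 1.31 for Sass6, 1.20 for Cep89, 1.08 for Cep70 and 1.05 for Cep162. In each the doxorubicin library was the higher one in deficient cultures and the lower one in wild type by counts. By TPM the log2 ratios in deficient and wild type were -0.01 and -0.47 for Cep70, which are not opposite, and 0.78 and -0.07 for Sass6. Mcph1 was 2.08-fold higher (1.67 to 2.60) with doxorubicin in deficient cultures and 1.52-fold lower (1.25 to 1.86) in wild type. Sass6 was 1.75-fold higher (1.44 to 2.14) and 1.54-fold lower (1.25 to 1.90). Cep89 was 1.76-fold higher (1.56 to 1.99) and 1.34-fold lower (1.20 to 1.50), Cep162 1.64-fold higher (1.43 to 1.88) and 1.31-fold lower (1.16 to 1.48), and Cep70 1.20-fold higher (1.02 to 1.42) and 1.86-fold lower (1.57 to 2.22).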

How the results depend on the processing

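All 11 genes called by genotype kept their direction in every alternative fit of the genotype test. Leaving out 1 library moved the count called higher between 3 and 9 and the count called lower between 1 and 5. These fits have no treatment term, and with all 4 libraries such a fit called 5 higher and 5 lower, having lost Cep85. Against that fit, the calls lost without the deficient doxorubicin library included Cep126, Cep128, Cep164 and Cep55 (3 higher and 2 lower remained), and those lost without the deficient untreated library included Ccp110, Cep126 and Cep164 (5 higher and 1 lower). Without the wild-type untreated library Cep19, Cep57l1 and Wdr62 were gained, and without the wild-type doxorubicin library Cep192 and Stil were gained, and Cep85 was called in both of these fits. A minimum mean of 5 CPM gave 10 called higher, with Cep192, Pcnt, Stil and Wdr62 added, and no filter gave 3 called lower, with Cep126 lost. DESeq2's adjusted p for treatment was NA for 34 of the 47 genes. Reversed directions were seen only in genes not called. Mcph1 stood at 0.07 with limma-voom, 0.03 without the treatment term and between -0.59 and 0.47 when 1 library was left out, Cenpj between -0.41 and 0.70, and Sass6 between -0.01 and 0.81. The causes were not tested.

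Counts by size moved with the pseudocount and scale. In deficient cultures the count higher with doxorubicin was 1 under DESeq2 size factors, 1 under total counts, 4 at a pseudocount of 0.5 and 0 at 5. In wild type it was 4 at 0.5, 1 at 5 and 0 by TPM, and the count lower was 2 at 5. Between genotypes, the count lower after doxorubicin was 3 at a pseudocount of 5, the count lower without treatment was 5 by TPM, and the median after doxorubicin was 0.07 by TPM. TPM moved the median of all genes, deficient over wild type, to -0.08 after doxorubicin and -0.21 without it. Depth limits the low genes most, since 16 and 22 counts carry the wild-type doxorubicin values of Wdr62 and Cep55. No paired analysis was possible because each group has 1 library, and the number in the titles follows the treatment.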
